A study of Homo sapiens with 6 samples.

Results

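Inflammatory cytokines and targets of NF-kB were followed in A375 cells, a human melanoma line, by RNA sequencing. The 10 genes were taken by name from 58302 gene IDs in the count tables: the chemokines CXCL8, CXCL1, CXCL2 and CCL2, the cytokines IL6, IL1A, IL1B and LIF, and the NF-kB inhibitors NFKBIA and TNFAIP3. All 10 had an ID, and 9 of them had enough reads to receive an adjusted p. The libraries formed 2 groups of 3, cells carrying an empty vector (EV) and cells overexpressing HMGB2, a chromatin protein that bends DNA (HMGB2OE). According to the study's methods the lines were stable, made by lentiviral transduction and drug selection, and its reporting form calls the replicates technical. The p-values therefore measure the spread between pellets of 1 line per group, and a difference between the lines cannot be told apart from one caused by HMGB2.

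NF-kB is a family of transcription factors held in the cytoplasm by IkB proteins. When the IKK complex is activated, for instance through receptors for IL-1 or TNF, IkB is degraded and NF-kB dimers enter the nucleus and switch on cytokines, survival genes and their own inhibitors. NFKBIA encodes IkB-alpha and TNFAIP3 encodes the ubiquitin-editing enzyme A20, and both close a negative feedback loop. CXCL8, CXCL1 and CXCL2 draw in neutrophils through the receptors CXCR1 and CXCR2, and CCL2 draws in monocytes. IL-1 alpha and IL-1 beta signal through one receptor, and IL-6 and LIF signal through the shared chain gp130 to STAT3. Melanoma cells are known to secrete several of these proteins, among them IL-8, the product of CXCL8.

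Each library held between 45925053 and 56755212 reads assigned to genes. HMGB2 checked the labels. Its normalized counts, which are reads divided by a library size factor, were 7250.1, 7728.8 and 7561.7 in EV replicates 1 to 3 and 15095, 16847.7 and 14609.4 in HMGB2OE replicates 1 to 3 (log2 fold change 1.05, SE 0.10). The melanocyte lineage genes MITF and S100B were present in all 6 libraries, with normalized counts of 1380.9 to 1718.6 and 3346.2 to 3841.3, whereas MLANA, TYR and DCT were each under a mean of 10. SOX10 had 0 reads in the column used, although the columns that keep strands apart held 253416, because reads shared with a gene on the other strand are set aside. PMEL likewise kept 342 reads beside 10158 in those columns, so its level is unknown. Of 7 leukocyte markers, 6 stayed under a mean of 10 normalized counts, and PTPRC, which marks all leukocytes, was at 0 throughout. CD68 also lost its reads to a gene on the other strand, with 4 kept beside 1340 in the stranded columns, so its level is unknown. The summed leukocyte level was 19.5 to 30 in EV and 21.4 to 50.9 in HMGB2OE. Summed fibroblast markers ranged from 3070 to 5220 in EV and from 4610 to 6380 in HMGB2OE, summed epithelial markers from 970 to 1330 and from 1070 to 1480, and summed endothelial markers from 312 to 348 and from 287 to 295. The epithelial sum hid uneven genes. KRT5 had normalized counts of 5.05, 11.5 and 279 in EV and 249.8, 199.9 and 289.2 in HMGB2OE. CDH1 was 490.5 in HMGB2OE replicate 1, beside 119.2 to 197 elsewhere. KDR was the only one of these markers that was called (log2 fold change -1.11; adjusted p = 0.00115 by DESeq2). The part of these markers in the results below was not tested. EV replicate 3 stood apart from the other EV libraries. The chi-square per gene between its counts and theirs was 73.9 and 81.5, beside 13.5 between those libraries, and it was 33.5 to 62.4 between EV replicate 3 and the HMGB2OE libraries. HMGB2OE replicate 3 had 10.6% multimapped reads, beside 2.58% to 4.89% elsewhere. Without EV replicate 3 2854 genes passed the test in place of 930, so some of the calls that turned without it are named below.

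The promoters of these genes carry the letters that NF-kB and AP-1, its frequent partner, are known to recognise. They are shown first because the members differ in them. Of the 10 members, 8 had an entry in the RefSeq promoter table (GRCh38.p14). The 250 bases before the start were searched on both strands for the NF-kB consensus of 10 letters, for the shorter form GGNNNTTCC, which can overlap it, and for the AP-1 motif TGANTCA. The NF-kB consensus was found in 5 of the 8 (CXCL1, CXCL2, IL6, NFKBIA and TNFAIP3), against 9.74% of 27305 promoters. The shorter form was found in those and in CXCL8, against 17.2%, and the AP-1 motif in CXCL8 and IL1A, against 6.48%. Since the members were picked as NF-kB targets, these shares describe the choice of genes. The sequences below give 120 bases that end close to the start of transcription, 5′ to 3′ on the gene's own strand, with matches to any of the 3 motifs in capitals. CXCL3, the neighbour of CXCL2, is set beside CXCL1 and CXCL2 because the 3 promoters are nearly alike.
CXCL8, chr4:73740449-73740568, plus strand: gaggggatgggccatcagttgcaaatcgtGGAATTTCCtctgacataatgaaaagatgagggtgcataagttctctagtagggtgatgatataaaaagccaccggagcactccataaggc
CXCL1, chr4:73869273-73869392, plus strand: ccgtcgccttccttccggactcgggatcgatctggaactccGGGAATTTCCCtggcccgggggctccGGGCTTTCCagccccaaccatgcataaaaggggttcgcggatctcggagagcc
CXCL2, chr4:74099196-74099315, minus strand: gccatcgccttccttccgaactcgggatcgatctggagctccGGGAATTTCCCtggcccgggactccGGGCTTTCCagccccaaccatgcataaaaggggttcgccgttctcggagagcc
CXCL3, chr4:74038690-74038809, minus strand: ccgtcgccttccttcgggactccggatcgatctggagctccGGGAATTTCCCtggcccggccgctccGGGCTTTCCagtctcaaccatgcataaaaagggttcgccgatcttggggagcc
IL1A, chr2:112784494-112784613, minus strand: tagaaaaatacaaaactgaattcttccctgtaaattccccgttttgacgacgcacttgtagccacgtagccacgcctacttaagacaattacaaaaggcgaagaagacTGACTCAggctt
IL1B, chr2:112836780-112836899, minus strand: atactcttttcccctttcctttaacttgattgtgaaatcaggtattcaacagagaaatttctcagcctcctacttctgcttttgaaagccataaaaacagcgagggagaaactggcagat
NFKBIA, chr14:35404750-35404869, minus strand: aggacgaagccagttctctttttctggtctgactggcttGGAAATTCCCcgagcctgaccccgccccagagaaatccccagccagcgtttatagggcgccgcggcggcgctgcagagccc
TNFAIP3, chr6:137867139-137867258, plus strand: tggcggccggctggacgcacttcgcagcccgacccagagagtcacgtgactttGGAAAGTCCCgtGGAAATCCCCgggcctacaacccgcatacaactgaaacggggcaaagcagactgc

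In CXCL8 the shorter form began 91 bases before the start, and the AP-1 motif lay 137 bases before it, upstream of the bases printed. CXCL1 held the NF-kB consensus 79 bases before its start and a shorter match 53 bases before it. IL1A held only the AP-1 motif, 12 bases before its start, and IL1B held none of the 3 motifs in the 250 bases. The absence of a match says only that these letters are not in this window.

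HMGB2OE cells held less mRNA of IL1A, LIF, CXCL8 and IL1B than EV cells, with levels between 39.9% and 63.1% of EV, while the feedback inhibitors NFKBIA and TNFAIP3 did not pass the test. Of the 10 members, 4 were lower and 0 higher at an adjusted p under 0.05 (DESeq2 Wald test, adjusted over 18836 genes). Over all genes tested, 4.94% passed, 2.64% lower and 2.29% higher. edgeR called the same 4, where 2.81% of all genes passed. At an unadjusted p under 0.05, 5 members were lower and 0 higher, beside 7.31% lower and 6.98% higher of all genes. The median log2 fold change of the 9 members with an adjusted p was -0.43, beside 0.003 over all genes. The members were chosen with earlier results of these data known, so these counts and shares do not test an independent set of genes. In bulk RNA, fewer expressing cells and less RNA per cell cannot be told apart.

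**Figure D1:**
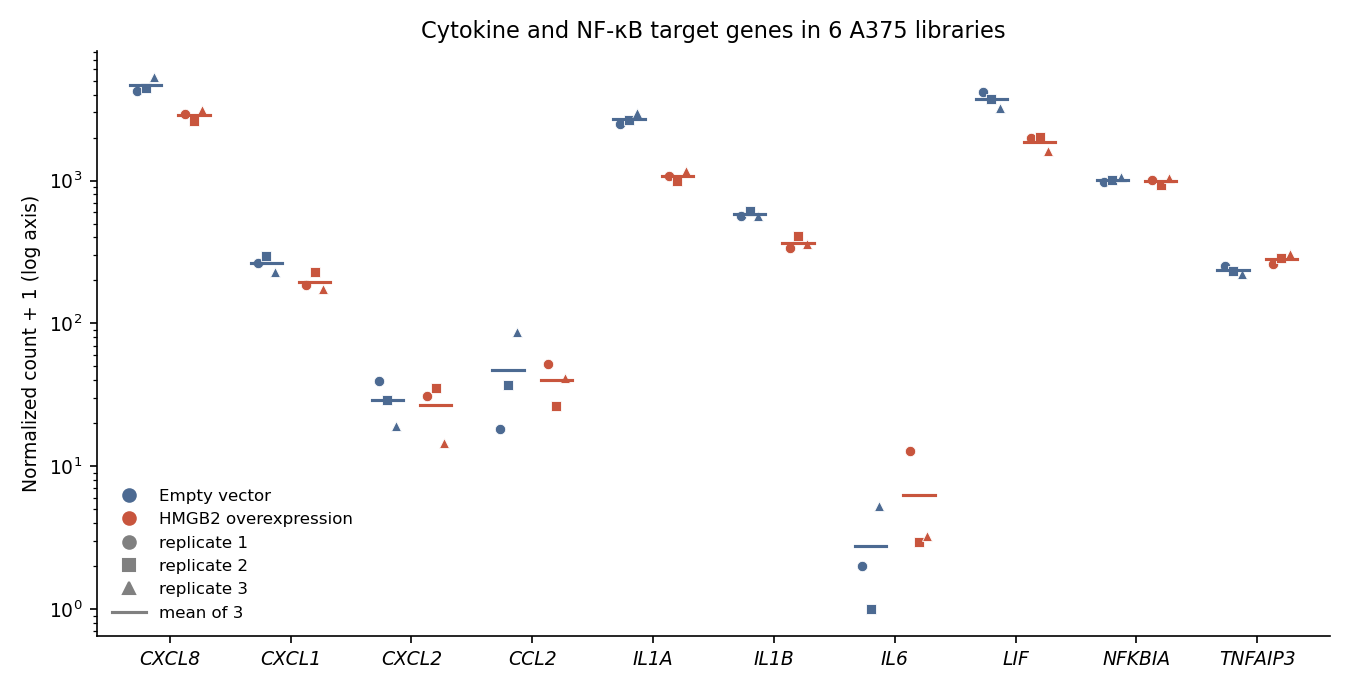
Normalized counts of each member plus 1 (log axis) in the 3 EV and 3 HMGB2OE libraries, 1 point per library, with a line at the mean of 3. For IL1A, LIF, CXCL8 and IL1B every HMGB2OE point sits below every EV point; for NFKBIA, CXCL2, CCL2 and IL6 the points overlap.

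IL1A encodes IL-1 alpha, which cells keep partly in the nucleus and release when injured. Its normalized counts were 2481, 2664.5 and 2973.8 in the EV libraries and 1078.2, 988.9 and 1171.6 in the HMGB2OE libraries. The groups were well apart, the highest HMGB2OE library lying below the lowest EV library. The level with HMGB2OE was 39.9% of EV (95% interval 33.7% to 47.2%), a log2 fold change of -1.33 (SE 0.12; adjusted p = 1.39e-23 by DESeq2). IL1A lies at chr2:112773925-112784493 on the minus strand (GRCh38). Under 14 alternative settings, which included leaving out each library in turn, the log2 fold change stayed between -1.39 and -1.25 and passed the test each time.

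IL1B, the gene of IL-1 beta, lies in the same cluster at chr2:112829751-112836816. Its normalized counts were 562.7, 614.8 and 567.7 in EV and 334.3, 407.8 and 359 in HMGB2OE. No HMGB2OE library reached the EV range. The log2 fold change was -0.67 (SE 0.14; adjusted p = 1.36e-04 by DESeq2), and it passed under all 14 settings, with a highest adjusted p of 0.0393.

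IL37 and IL1RN, further members of the IL-1 family on chromosome 2, were also called lower. IL37, which is known to dampen inflammation, lies 81.4 kb from IL1B, counted between their lowest annotated positions. It fell from 105.9 ± 17.5 to 57.3 ± 10.1 normalized counts (mean ± SD, n = 3; log2 fold change -0.88, SE 0.27; adjusted p = 0.0236 by DESeq2), but neither edgeR nor the fits without any 1 library other than EV replicate 3 called it. IL1RN, which encodes the secreted antagonist of the IL-1 receptor, had few reads, 13, 14 and 3 in EV and 1, 0 and 0 in HMGB2OE. Scaled for depth, the ratio of HMGB2OE to EV was 0.0337 (exact 95% interval 0.000827 to 0.203, counting error only). DESeq2 called it (adjusted p = 0.0357), whereas 3 settings did not, among them those without HMGB2OE replicate 2 or 3, and 9 gave it no adjusted p.

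LIF, the leukemia inhibitory factor at chr22:30240453-30246759 on the minus strand, had normalized counts of 4153.9, 3734.6 and 3238.9 in EV and 1976.6, 2029 and 1611.6 in HMGB2OE. The groups did not overlap, and HMGB2OE stood at 50.5% of EV (95% interval 41.7% to 61.2%). The log2 fold change was -0.99 (SE 0.14; adjusted p = 1.10e-09 by DESeq2) and ranged from -1.07 to -0.89 over the 14 settings, all of which called it. About 88.4% of its reads on both strands were kept in the column used, the others being shared with a gene on the opposite strand.

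CXCL8 was the most abundant member per length. Its normalized counts were 4249.9, 4428.2 and 5279 in EV and 2935.8, 2622.9 and 3126.5 in HMGB2OE, with no overlap. The level with HMGB2OE was 62.2% of EV (95% interval 52.3% to 74.1%), a log2 fold change of -0.68 (SE 0.13; adjusted p = 1.2e-05 by DESeq2). All 14 settings called it, with log2 fold changes from -0.75 to -0.58 and a highest adjusted p of 0.0188. CXCL8 opens a chemokine cluster on chromosome 4, at chr4:73740519-73743716.

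**Figure D2:**
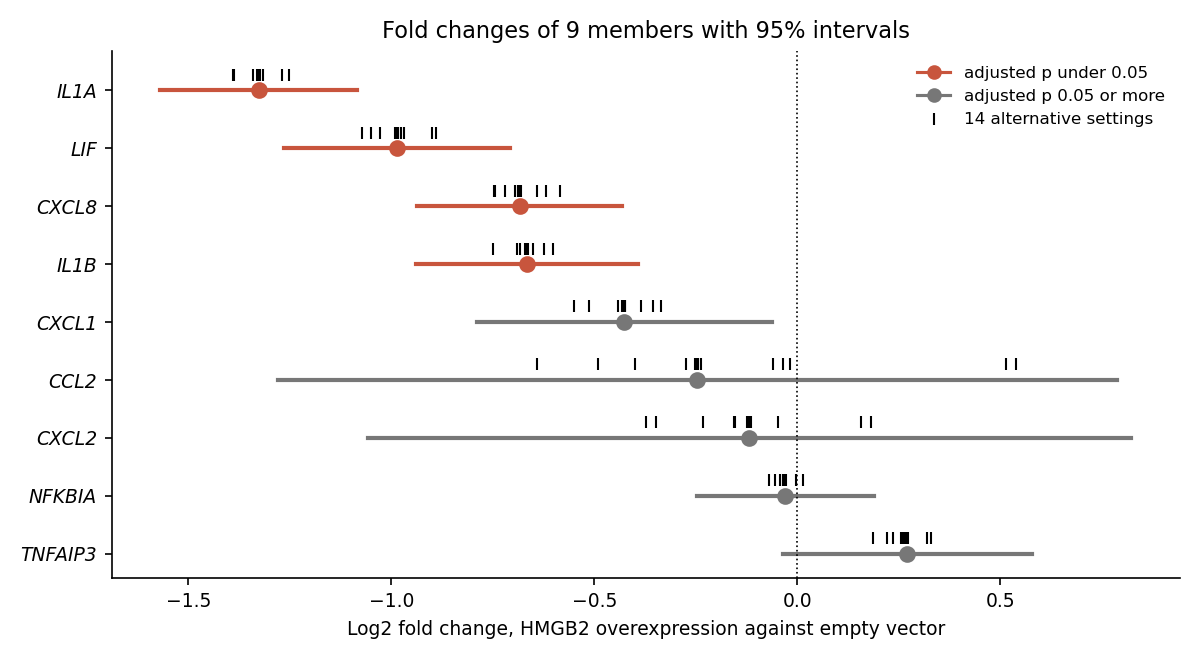
Log2 fold change (HMGB2OE against EV) of the 9 members with an adjusted p, with 95% intervals from DESeq2; small ticks mark the value under each of the 14 alternative settings. The intervals of IL1A, LIF, CXCL8, IL1B and CXCL1 lie wholly below 0, of which CXCL1 did not pass after adjustment.

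CXCL1, 128.9 kb beyond CXCL8, had normalized counts of 263.7, 294.1 and 228.6 in EV and 184.4, 226.5 and 174.4 in HMGB2OE. The highest HMGB2OE library was just under the lowest EV library, so the groups did not overlap. The difference did not pass the test (log2 fold change -0.43, SE 0.19, 95% interval -0.79 to -0.06; adjusted p = 0.215 by DESeq2). Of the 14 settings only the fit without EV replicate 3 called it (adjusted p = 0.047, DESeq2). Non-overlap of this kind was found for 10.7% of all genes tested.

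CXCL2, at the far end of the cluster 356.5 kb from CXCL8, was scarce, with normalized counts of 38.4, 28.3 and 18.2 in EV and 30, 34.5 and 13.5 in HMGB2OE. The groups overlapped throughout. The log2 fold change was -0.12 (SE 0.48; adjusted p = 0.962 by DESeq2), and its 95% interval ran from 48.0% to 177% of EV, so a change of either sign within those limits was not detectable at this depth. The mRNAs of CXCL1, CXCL2 and CXCL3 are closely related. Of their 50-base stretches, 4.57%, 13.4% and 6.01% also occur in another of the 3, and reads falling wholly in such stretches may be counted for none of them.

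The cluster holds 2 further chemokines with reads enough to test. CXCL3, whose product binds the same receptor as CXCL1 and CXCL2, had normalized counts of 72.7, 102.8 and 65.5 in EV and 33.6, 38.4 and 33.8 in HMGB2OE. It was lower without overlap (log2 fold change -1.19, SE 0.31; adjusted p = 0.00492 by DESeq2), although leaving out EV replicate 1 or 2 or HMGB2OE replicate 1 or 3 ended the call. CXCL5, another neutrophil chemokine, had 63.6, 61.1 and 16.1 in EV and 20.9, 4.92 and 11.3 in HMGB2OE. EV replicate 3 lay inside the HMGB2OE range. The log2 fold change of CXCL5 was -1.92 (SE 0.62; adjusted p = 0.04 by DESeq2), and 6 of the 14 settings did not call it, among them those without EV replicate 1 or 2 or HMGB2OE replicate 2 or 3. CXCL6 had 11 reads in all 6 libraries together, and PF4V1, PF4 and PPBP had 0. CXCL1, CXCL2 and CXCL3, the 3 chemokines with NF-kB consensus letters in nearly the same promoter, had log2 fold changes of -0.43, -0.12 and -1.19. Of these the last passed. Their 95% intervals overlap (-0.79 to -0.06, -1.06 to 0.82 and -1.80 to -0.58), and a difference between the 3 genes was not tested.

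**Figure D3:**
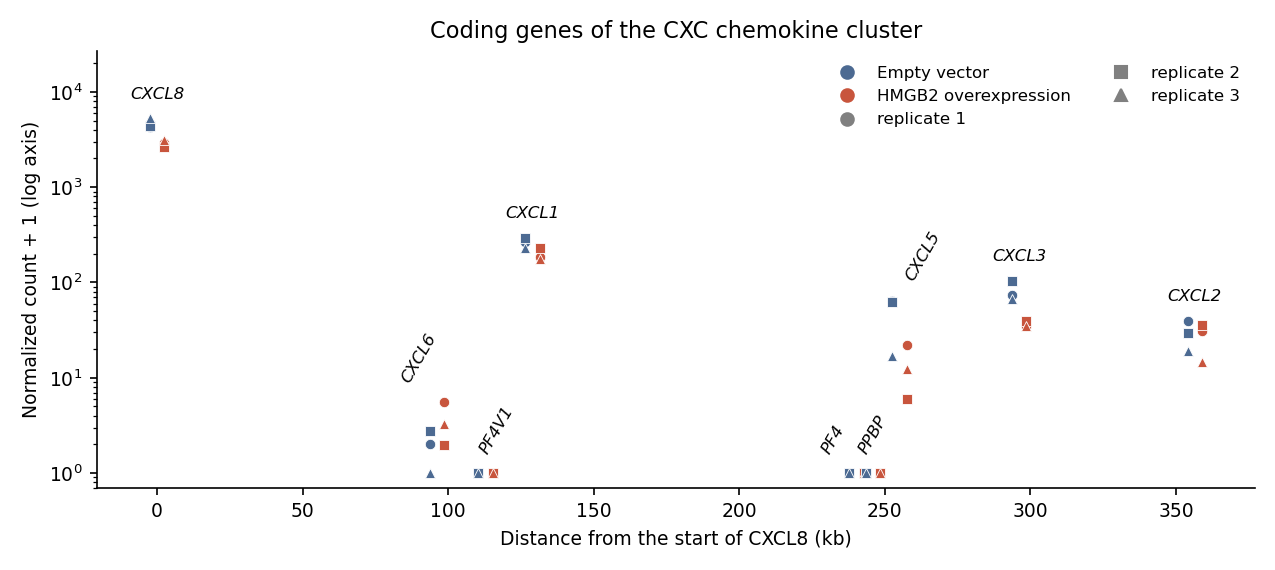
Normalized counts plus 1 (log axis) of the coding chemokine genes on chromosome 4 against distance from CXCL8 in kb, 1 point per library, EV and HMGB2OE. CXCL8 is highest; the HMGB2OE points of CXCL8, CXCL1 and CXCL3 lie below the EV points, and those of CXCL5 and CXCL2 overlap with them.

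CCL2, at chr17:34255274-34257208, varied more within EV than between the groups. Its normalized counts were 17.2, 36.3 and 85.9 in EV and 50.9, 25.6 and 40.5 in HMGB2OE. The groups overlapped, and the log2 fold change was -0.25 (SE 0.53; adjusted p = 0.914 by DESeq2). Its sign rested on EV replicate 3, without which it was 0.54.

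IL6 was close to absent, with 1, 0 and 4 reads in EV and 13, 2 and 2 in HMGB2OE. Of the 17 HMGB2OE reads, 13 came from replicate 1. Scaled for depth, the ratio of HMGB2OE to EV was 3.44 (exact 95% interval 1.22 to 11.9, which covers counting error only and not the spread between libraries). DESeq2 at its defaults gave no adjusted p. Without the independent filter it gave an adjusted p of 0.974. On the stranded columns added together it gave 0.219 (log2 fold change 2.39, SE 1.04). Only 47.8% of the reads on both strands were kept in the column used, so the value is uncertain.

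NFKBIA, the inhibitor that NF-kB itself induces, had normalized counts of 981.9, 1009.8 and 1050.7 in EV and 1001, 929.8 and 1048.9 in HMGB2OE. The libraries overlapped. The log2 fold change was -0.03 (SE 0.11; adjusted p = 0.956 by DESeq2), and the 95% interval of the level was 84.2% to 114% of EV. A fall to the 39.9% to 63.1% seen for the 4 cytokines lies outside that interval.

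TNFAIP3 had normalized counts of 250.5, 230.3 and 222.2 in EV and 259.8, 286.6 and 302.7 in HMGB2OE. Every HMGB2OE library was above every EV library, a non-overlap found for 11.1% of genes tested. The log2 fold change was 0.27 (SE 0.16; adjusted p = 0.451 by DESeq2), and none of the 14 settings called it. The 95% interval was 97.5% to 149% of EV.

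Levels were compared between genes as RPKM, the reads per kilobase of annotated exon scaled to library depth. In EV the order was CXCL8 (35.6), IL1A (26.5), LIF (19.0), NFKBIA (5.91), IL1B (3.83), CXCL1 (3.81), TNFAIP3 (0.720), CCL2 (0.472), CXCL2 (0.402) and IL6 (0.00802). IL1B and CXCL1 overlapped in range, as did TNFAIP3 with CCL2 and CCL2 with CXCL2. In HMGB2OE the mean RPKM of IL1A was 10.5 and that of LIF 9.55, and their ranges, separate in EV, overlapped. The 3 most abundant members were thus all among the 4 that fell, and the members without a call included every one under 1 RPKM.

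A shared feature outside the promoter is the AU-rich word ATTTA in the 3′ untranslated region, which is known to shorten the life of cytokine mRNAs. Of the 10 members, 8 held 5 or more ATTTA words, against 29.1% of 19228 transcripts, and 6 held the longer form TTATTTATT, against 8.5%. Since the members were picked as cytokines and NF-kB targets, these shares too describe the choice of genes. The densest 30 bases are printed for a member that fell, for its uncalled neighbour, for another that fell and for an uncalled inhibitor, with ATTTA in capitals; words may overlap by 1 base.
CXCL8: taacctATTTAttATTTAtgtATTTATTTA
CXCL2: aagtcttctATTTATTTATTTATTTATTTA
IL1A: tATTTAtatatgtATTTAtaaatatATTTA
NFKBIA: ctaaaaaaagaaaaaagaagaaaaaATTTA
CXCL8 held 9 such words, CXCL2 10, IL1A 5, IL1B 6, LIF 7, CXCL1 6, IL6 6, TNFAIP3 5, NFKBIA 3 and CCL2 1. The word counts of the 4 members that fell lay within the range of the others.

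Other genes of the pathway were taken from 8 lists. Of 156 genes listed, 132 had an adjusted p. DESeq2 called 22 of them lower (16.7%) and 5 higher (3.79%), with a median log2 fold change of -0.10. Over all genes tested, 2.64% were lower and 2.29% higher. These shares are also the comparison for the counts of each list below. Without EV replicate 3 the counts were 33 lower and 8 higher, while the calls over all genes rose from 930 to 2854. Of the 27 called, 10 were called under every setting. The lists are described below by role.

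**Figure D4:**
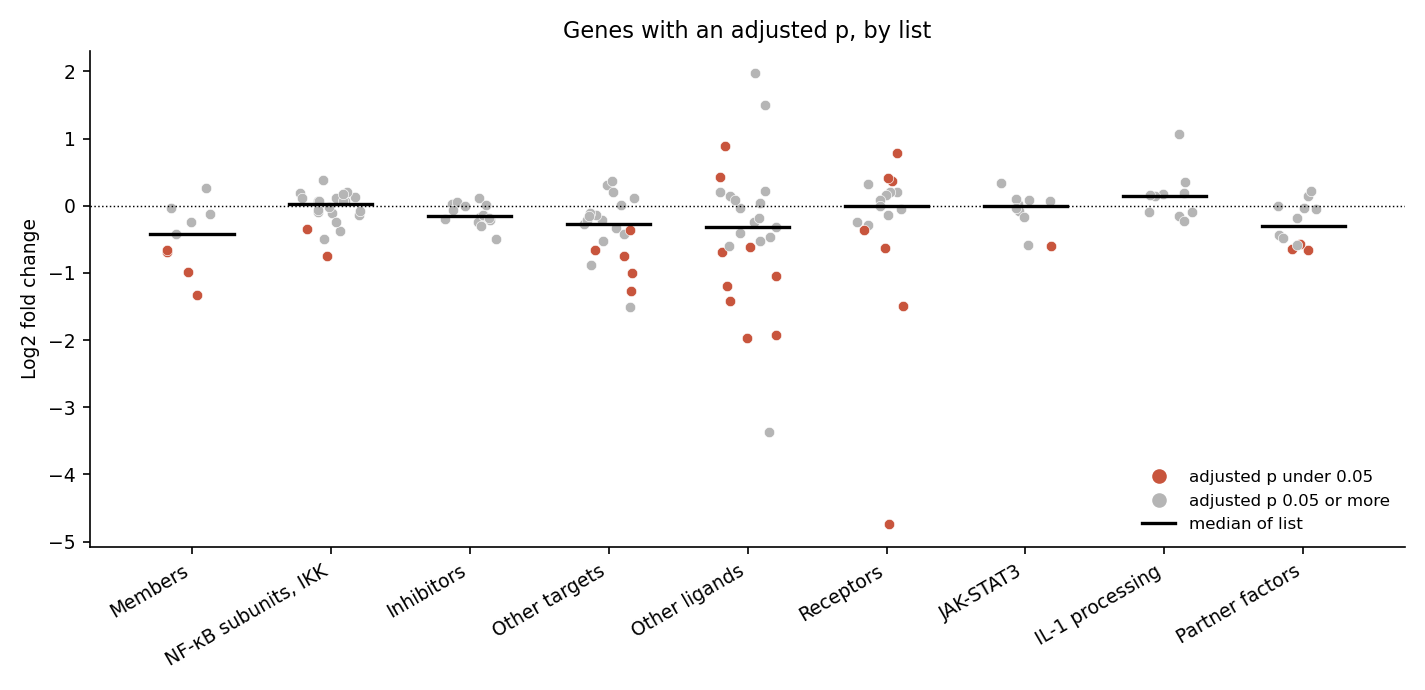
Log2 fold change (HMGB2OE against EV) of every gene with an adjusted p, 1 point per gene, by list; called genes are coloured and a bar marks the median of each list. The medians run from -0.43 for the members to 0.15 for IL-1 processing, and IL1RN is the lowest point at -4.74.

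Ligands other than the members moved in both directions. Of 39 listed, 25 had an adjusted p, and 7 were lower and 2 higher. IL24, a cytokine of the IL-10 family described for its activity against melanoma cells, was the most abundant of the ligands, at 272 RPKM in EV. Its normalized counts were 27299.3, 26998 and 27296.7 in EV and 7978, 6571.6 and 6392.5 in HMGB2OE. The groups were far apart, with HMGB2OE at 25.7% of EV (95% interval 21.9% to 30.1%; log2 fold change -1.96, SE 0.12; adjusted p = 2.41e-60 by DESeq2). IL11, which like IL-6 and LIF signals through gp130, fell from 2059.4 ± 235.3 to 1275.9 ± 111.9 normalized counts (log2 fold change -0.69; adjusted p = 1.53e-05 by DESeq2). CLCF1, another gp130 ligand, fell by 0.62 on the log2 scale (adjusted p = 0.00379 by DESeq2), and CSF2, the growth factor GM-CSF, fell by 1.42 from a low level of 61.4 normalized counts (adjusted p = 0.0019 by DESeq2). The call of CLCF1 was lost without EV replicate 1 or 2 or HMGB2OE replicate 1 or 3, and that of CSF2 without EV replicate 2 or HMGB2OE replicate 1. CXCL3 and CXCL5 were described with their cluster. The remaining called ligands were TSLP, lower, and CCL28 and IL18, higher. IL18, an IL-1 family cytokine, had normalized counts of 45.5, 83.3 and 96.6 in EV and 136.3, 119.2 and 160.9 in HMGB2OE (log2 fold change 0.89; adjusted p = 0.0489 by DESeq2), and 7 of the 14 settings did not call it. The calls of TSLP, CCL28 and IL18 were each lost when any 1 library other than EV replicate 3 was left out, and edgeR called neither CCL28 (adjusted p = 0.0641) nor IL18 (adjusted p = 0.13). TNF, a main inducer of NF-kB, had 1, 1 and 0 reads in EV and 1, 0 and 0 in HMGB2OE.

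Among NF-kB subunits, the IKK complex and upstream adaptors, 2 of 22 were called, both subunits and both lower, and the median log2 fold change was 0.03. RELB, the subunit of the alternative branch, had normalized counts of 2328.5, 1983.4 and 2033.7 in EV and 1368.9, 1301.1 and 1114.2 in HMGB2OE. It was lower without overlap (log2 fold change -0.75, SE 0.13; adjusted p = 1.13e-06 by DESeq2) under every setting. NFKB1, the precursor of p50, fell from 6256.5 ± 439.9 to 4913.2 ± 202.4 (log2 fold change -0.35, SE 0.10; adjusted p = 0.0183 by DESeq2), but edgeR did not call it (adjusted p = 0.0799), nor did the fits without any 1 library other than EV replicate 3. NFKB2 and RELA, named here after their values were seen, did not pass. NFKB2, the precursor of p52, had a log2 fold change of -0.50 (adjusted p = 0.0649 by DESeq2), and passed without EV replicate 3 (adjusted p = 6.08e-09), with replicates 1 and 2 alone (adjusted p = 4.45e-18) and with a term for the third replicates (adjusted p = 1.62e-09). RELA, the main activating subunit, had a log2 fold change of -0.11 (adjusted p = 0.842 by DESeq2). DESeq2 also called MALT1 higher (adjusted p = 4.29e-05) and IRAK1 lower (adjusted p = 0.00382) without EV replicate 3. Both were called as well with replicates 1 and 2 alone, with a term for the third replicates and with the replicate number as a block.

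Of 15 other inhibitors of NF-kB or of cytokine mRNA with an adjusted p, 0 were called by DESeq2, and 0 had an unadjusted p under 0.05. edgeR called 0 as well. Without EV replicate 3, DESeq2 called 4 of them lower, namely OTUD7B (adjusted p = 0.000438), ZFP36L1 (adjusted p = 0.00821), NFKBIZ (adjusted p = 0.0205) and ZFP36 (adjusted p = 0.0344). The most abundant were TAX1BP1, an adaptor for A20, with a log2 fold change of -0.13, and ZFP36L1, which binds AU-rich words, with -0.18. The value of ZFP36L1 was -0.37 without EV replicate 3 and -0.03 without EV replicate 1, and replicates 1 and 2 alone also called it lower (adjusted p = 0.00229 by DESeq2). OTUD7B was called lower with replicates 1 and 2 alone too (adjusted p = 5.49e-05 by DESeq2). ZFP36 was called lower with a term for the third replicates too (adjusted p = 0.0257 by DESeq2).

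Other NF-kB targets gave 5 lower and 0 higher of 21, with a median log2 fold change of -0.27. The list included the cytokine IL32, which was not called (log2 fold change -0.89, adjusted p = 0.27 by DESeq2). BIRC3, the inhibitor of apoptosis cIAP2, had normalized counts of 729.4, 788.4 and 728.7 in EV and 456.9, 347.7 and 317.4 in HMGB2OE (log2 fold change -0.999, SE 0.16; adjusted p = 1.66e-07 by DESeq2). PTX3, a secreted pattern recognition protein, had 763.7, 718.4 and 751.2 in EV and 451.5, 455 and 416.4 in HMGB2OE (log2 fold change -0.75, SE 0.12; adjusted p = 7.21e-08 by DESeq2). Both were called under every setting. BCL2A1 and BCL2L1, survival proteins of the BCL2 family, fell by 1.27 and 0.66 on the log2 scale (adjusted p = 0.00192 and 1.27e-05 by DESeq2). BCL2A1 was not called without HMGB2OE replicate 2. BCL2L1 kept only 37.8% of its reads in the column used. The fifth, SAT1, an enzyme of polyamine breakdown, had a log2 fold change of -0.37 (adjusted p = 0.021 by DESeq2) that neither edgeR nor the fits without any 1 library other than EV replicate 3 called. ICAM1, an adhesion molecule named after its values were seen, had a log2 fold change of -0.27 (adjusted p = 0.651 by DESeq2). Without EV replicate 3 it was -0.47 and passed (adjusted p = 0.00604), as it did with replicates 1 and 2 alone and with a term for the third replicates. ICAM1 kept 66.1% of its reads. DESeq2 also called TNFAIP8 higher (adjusted p = 0.00497) and TRAF1 lower (adjusted p = 0.0251) without EV replicate 3. Both were called with replicates 1 and 2 alone too (adjusted p = 0.0258 and 0.0266 by DESeq2).

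Transcription factors that act together with NF-kB gave 3 lower and 0 higher of 12, with a median of -0.31. CEBPB and CEBPG belong to the C/EBP family, which binds next to NF-kB at cytokine promoters. CEBPG fell from 5641.7 ± 81.1 to 3581.6 ± 410.5 normalized counts (log2 fold change -0.66; adjusted p = 1.74e-06 by DESeq2), under every setting. CEBPB fell by 0.64 on the log2 scale (adjusted p = 0.00554 by DESeq2), with 74.7% of its reads kept, and was not called by edgeR or without EV replicate 1 or HMGB2OE replicate 1 or 3. ATF3, a stress-induced factor, fell by 0.57 (adjusted p = 0.00176 by DESeq2), and was not called without HMGB2OE replicate 1.

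**Figure D5:**
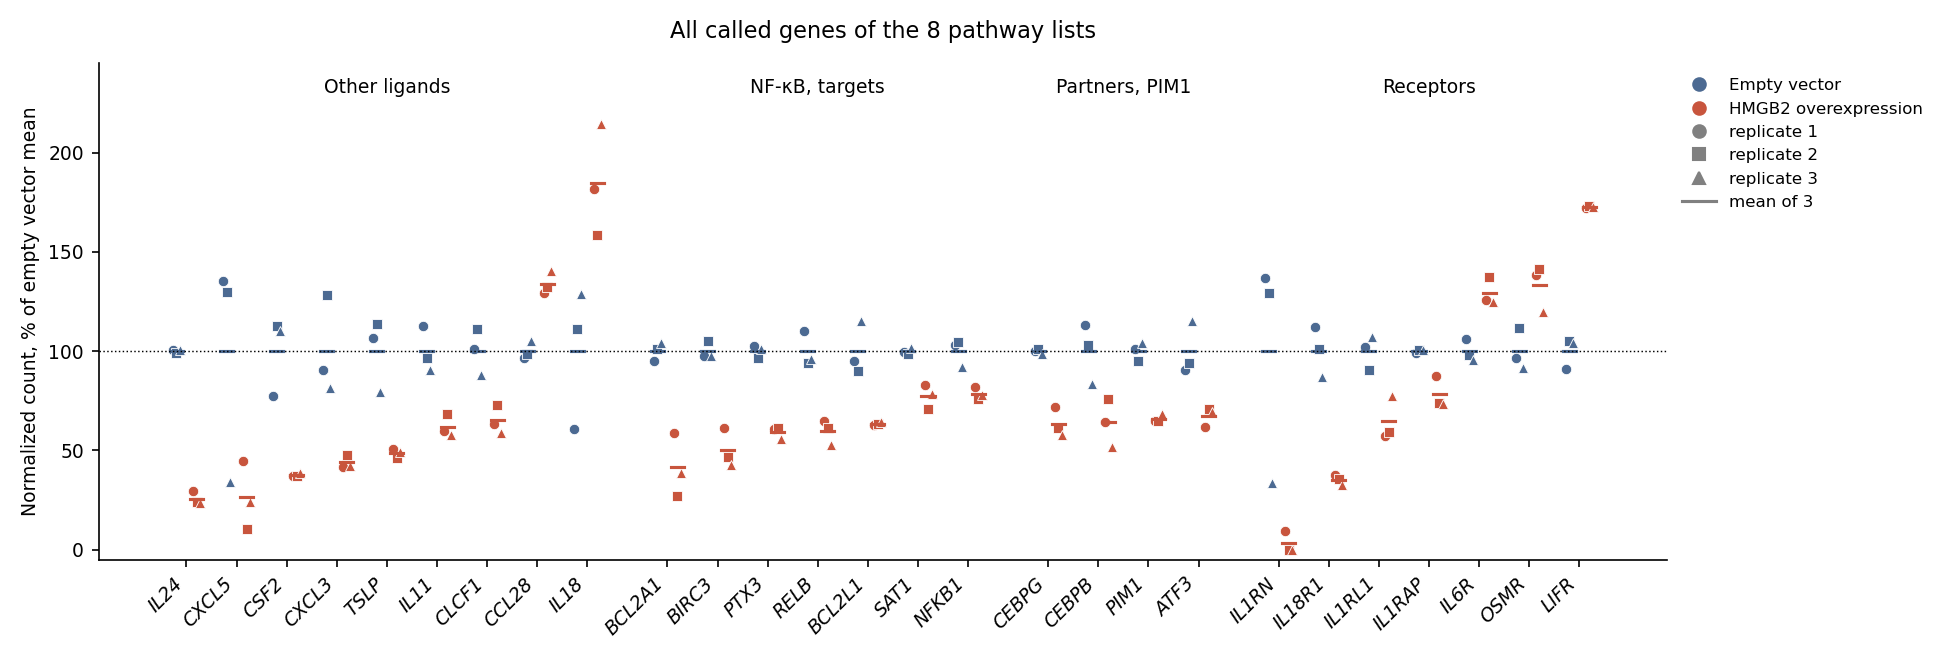
Normalized counts of the 27 called pathway genes in each library, as percent of the EV mean of the gene; 1 point per library, with a line at the mean of 3 and a dotted line at the EV mean. IL1RN, which had 30 reads in EV and 1 in HMGB2OE, lies lowest, and IL24 next, at 25.7% of EV; IL18 and LIFR lie highest, at 185% and 173%.

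The receptors were the list with most calls in the opposite direction. Of 17 with an adjusted p, 3 were higher and 4 lower, with a median of -0.01. The 3 higher genes all encode receptor chains of the IL-6 and LIF family. LIFR, the receptor of LIF, had normalized counts of 1061.7, 1228.6 and 1219.1 in EV and 2015.6, 2022.1 and 2020.2 in HMGB2OE. It stood at 173% of EV (95% interval 149% to 200%; log2 fold change 0.79, SE 0.11; adjusted p = 1.8e-10 by DESeq2) and was called under every setting, so that the ligand LIF was lower and its receptor higher in the same libraries. OSMR, the oncostatin M receptor, and IL6R, the receptor of IL-6, had log2 fold changes of 0.41 and 0.37 (adjusted p = 0.0266 and 0.041 by DESeq2), and edgeR called neither. OSMR was not called without EV replicate 1 or HMGB2OE replicate 1 or 2, and IL6R not without any 1 library other than EV replicate 3.

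The 4 lower genes, IL1RN included, belong to the IL-1 receptor system. IL18R1, a chain of the IL-18 receptor, had normalized counts of 296, 267.5 and 229.7 in EV and 99.9, 94.6 and 85.5 in HMGB2OE (log2 fold change -1.50, SE 0.19; adjusted p = 5.59e-12 by DESeq2). IL1RL1, the receptor of IL-33, had a log2 fold change of -0.63 (adjusted p = 0.00192 by DESeq2), not called without HMGB2OE replicate 1 or 2. The annotated bodies of IL18R1 and IL1RL1 overlap on the same strand, starting at 102311529 and 102311502 on chromosome 2, so their reads may not be fully separated. IL1RAP, the accessory chain of the receptors for IL-1 and IL-33, had a log2 fold change of -0.36 (adjusted p = 0.0374 by DESeq2). Neither edgeR nor the fits without any 1 library other than EV replicate 3 called IL1RAP. IL1R1, the IL-1 receptor itself, named after its values were seen, had normalized counts of 83.8, 85.0 and 110.5 in EV and 92.7, 56.1 and 79.9 in HMGB2OE, which overlap. CXCR1 and CXCR2, the receptors of CXCL8, had 1 and 7 reads in all 6 libraries together.

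Below gp130, 1 of 10 JAK-STAT3 genes was called. PIM1, a kinase gene induced by STAT3 and NF-kB, had normalized counts of 2072.9, 1939.9 and 2127.1 in EV and 1324.4, 1324.8 and 1402.3 in HMGB2OE (log2 fold change -0.60, SE 0.10; adjusted p = 5.76e-07 by DESeq2). STAT3 and PTPN11, the most abundant of the list, had log2 fold changes of 0.10 and -0.03 without a call. Of 10 genes for the maturation or release of IL-1, DESeq2 and edgeR called 0, while 3 were higher and 0 lower at an unadjusted p under 0.05, which 6.98% of all genes passed higher and 7.31% lower. The most abundant, CAPN2 and CAPN1, encode calpains, which cut the IL-1 alpha precursor, and had log2 fold changes of 0.14 and 0.18. CAPN1 was called higher with replicates 1 and 2 alone (adjusted p = 0.0352 by DESeq2) and with a term for the third replicates (adjusted p = 0.0236).

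The genes most like the 3 members with the smallest adjusted p were sought among 13326 genes, by the root mean square difference of centred log2 normalized counts over the 6 libraries. Nearest to IL1A were DEPDC7 (0.116), CCNA1 (0.129) and S1PR1 (0.131). Nearest to LIF were SARS1 (0.057), SLC7A5 (0.078) and LINC02693 (0.081), and nearest to CXCL8 were ANAPC1P2 (0.071), DDIT3 (0.077) and ZFHX4-AS1 (0.080). All 9 were lower with HMGB2OE, a direction that the search for likeness fixes. SARS1 encodes the seryl-tRNA synthetase and SLC7A5 a transporter of large neutral amino acids, and DDIT3 encodes the stress-induced factor CHOP.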

How the data were processed

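RNA was sequenced from 6 libraries of A375 cells, 3 EV and 3 HMGB2OE, grouped by the genotype in their labels. Libraries were prepared from poly(A) RNA with a kit that does not keep the strand. Per the labels, bcl2fastq 2.20, FastQC, Trimmomatic, STAR and the build GRCh38 were used. The deposited tables hold raw counts of reads for each gene, not normalized, in STAR's layout, where reads that map to several places or to several genes are not counted. The aligner version and annotation release are not given in the sources used here. The column for either strand was used. The 4 summary lines were left out. They hold multimapped reads (2.58% to 10.6%) and ambiguous reads (10.7% to 11.4%). GENCODE 44 gave names and positions for 57532 of 58302 IDs. The distances printed between genes run between their lowest annotated positions. SOD2, listed as a target, had no ID.

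Following the study's methods, DESeq2 1.42.0 (R 4.3.3) was run at its defaults, with its Wald test of group. Calls were made where the p adjusted over all genes by Benjamini-Hochberg was under 0.05. Intervals are 95%, from the SE or, for read ratios, exact binomial.

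The members and lists were chosen with earlier results of these data known. Genes named were the members, up to 6 called genes with the smallest adjusted p of each list, the 2 most abundant where fewer than 2 were called, called genes within 100 kb of a member, and the 3 genes (mean count 50 or more) most like each of 3 members. Others, among them the further called ligands and receptors, were named after their values were seen. The 14 alternatives were edgeR 4.0.16 (quasi-likelihood, TMM), DESeq2 with TMM factors, with at least 10 counts in 3 libraries required, without the independent filter, on the stranded columns added together, with a block for the replicate number, or with a term for replicate 3, on only replicates 1 and 2, and on 5 libraries, each of the 6 being left out in turn.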

Additional observations from a re-analysis of the deposited data

How the results depend on the processing

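The calls of IL1A, LIF, CXCL8 and IL1B and of HMGB2 held under all 14 settings, edgeR included. The count of members called lower was 4 in each, except 5 without EV replicate 3. The count over all genes depended more on the setting. Against 930 it was 470 with edgeR, 2733 with a term for the third replicates, 2621 with replicates 1 and 2 alone, and between 363 and 2854 when 1 library was left out, lowest without EV replicate 1 and highest without EV replicate 3. Against 22 pathway genes lower, leaving out 1 library gave 11 (without HMGB2OE replicate 1) to 33 (without EV replicate 3). Against 5 higher, edgeR gave 1, no independent filter 3, the term for the third replicates 10, replicates 1 and 2 alone 10, and leaving out 1 library 1 to 8. The cause was not tested. Of the 27 pathway genes called, 17 lost the call under at least 1 setting. The sign turned for CXCL2 (log2 fold change -0.37 to 0.18 with 1 library left out, 0.16 without EV replicate 1), CCL2 (-0.64 to 0.54, and 0.51 with replicates 1 and 2 alone) and NFKBIA (-0.071 to 0.014), none of them called in any setting.

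With the replicate number as a block 1826 genes were called. Among the genes named, TSLP was then no longer called (adjusted p = 0.0706 by DESeq2), and IL1RN received no adjusted p. NFKB2 (adjusted p = 5.74e-07), MALT1 (adjusted p = 0.00237) and IRAK1 (adjusted p = 0.00833) were among those newly called by DESeq2. The numbers did not pair the samples by the check used, since the correlation of deviations was 0.091 for number 1, 0.142 for number 2 and 0.349 for number 3, and not every sample correlated best with its own number.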

Other observations

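IL24 showed the smallest adjusted p of the pathway genes, and its neighbours on chromosome 1 were looked at after that was seen. FCMR encodes a receptor for IgM, and its lowest annotated position is 5.9 kb from that of IL24. Its normalized counts were 225.3, 244.5 and 158.8 in EV and 188.9, 145.8 and 123.8 in HMGB2OE. The groups overlapped (log2 fold change -0.45; DESeq2 adjusted p = 0.371). PIGR, which encodes the receptor that carries IgA and IgM across epithelia, lies 31.1 kb from IL24 by the same measure. It had 33.3, 31.9 and 2.15 in EV and 3.63, 0 and 1.13 in HMGB2OE. EV replicate 3 lay within the HMGB2OE range, and the call (log2 fold change -3.79, SE 1.10; DESeq2 adjusted p = 0.0171) was lost when any 1 library other than EV replicate 3 was left out.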
